A study of Mus musculus with 6 samples.

Results

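The drug-metabolizing cytochrome P450 genes of families 1 to 3 were followed in mouse livers during colorectal cancer progression. All genes of the count table whose symbol begins with Cyp1, Cyp2 or Cyp3 and a subfamily letter were taken, with 1 further family 2 gene left out by the rule. This gave 66 members of the 20140 genes listed, of which RefSeq annotates 52 as protein coding and 14 as pseudogenes. In these livers, 59 members belonged to the subfamilies Cyp1a, Cyp2a, Cyp2b, Cyp2c, Cyp2d, Cyp2e, Cyp2j and Cyp3a, and the other 7 were single members of further subfamilies.

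Cytochrome P450 enzymes are heme proteins of the endoplasmic reticulum that insert an oxygen atom into drugs, toxins, steroids and fatty acids, with electrons delivered by P450 reductase (Por) and cytochrome b5. Families 1 to 3 carry out most drug oxidation in hepatocytes and are made mainly around the central vein. The receptors AHR, CAR (Nr1i3) and PXR (Nr1i2) induce them in response to foreign compounds, and inflammatory cytokines are known to lower many of them.

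Bulk mRNA of whole liver was sequenced on day 21 from 6 mice, 2 in each of 3 groups, with no genetic modification named in the labels. Sham mice, titled control, received PBS. CT26 cells, a mouse colon carcinoma line, were given to the intra-C and intra-S mice. The study's methods describe CT26 models with cells implanted in the cecum (orthotopic model, premetastatic liver) and cells injected into the spleen (metastasis), and the labels give only the names intra-C and intra-S, so that the tumor site, the route of injection and the state of the liver changed together between these groups. The study used BALB/c mice for its CT26 models, and the age and sex of each mouse are not in the labels. Xist was at 660 to 1092 CPM (counts scaled to library size) in all 6 livers.

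Each library held 32838321 to 43368309 counts, and a zero, under which as many as 3 counts may lie, limits a level to 0.0679 to 0.0928 CPM (counting error only). CPM values here are scaled by edgeR's trimmed mean of M values (TMM) and compare 1 gene, or the sum of a fixed list of genes, between livers. The deposited TPM, which account for gene length too, were used to compare genes with each other and to add up the members. The defining hepatocyte genes were abundant in every liver, with a summed level of 12 markers of 114556 to 121455 CPM in the sham, 116778 to 160193 in the intra-C and 139977 to 196002 in the intra-S livers. Markers of other cells differed between the groups. The summed level of 8 neutrophil markers was 2.39 to 3.40 CPM in the sham, 259 to 559 in the intra-C and 384 to 943 in the intra-S livers, with 3 of the 8 at a count of 0 in both sham livers. The 2 intra-S livers differed from each other more than the livers of the other groups did: the chi-square of their counts, divided by its degrees of freedom, was 337, against 24.8 for sham and 73.1 for intra-C.

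The members together made up a smaller part of the liver transcriptome in both tumor groups. Their summed level was 29134 and 27173 TPM in sham, 10994 and 11394 TPM in the intra-C livers, and 6124 and 7759 TPM in the intra-S livers. In percent of all TPM these sums were 2.91 and 2.72 in sham, 1.10 and 1.14 in the intra-C livers, and 0.612 and 0.776 in the intra-S livers. All intra-C and intra-S livers were below both sham livers, with the intra-S livers lowest, and the group means were 39.8% of the sham mean in intra-C and 24.7% in intra-S. On TMM-scaled CPM the sums had the same order, from 24905 and 23402 in sham to 11239 and 10952 in the intra-C and 6928 and 8044 in the intra-S livers. In bulk tissue, fewer cells of a type and less RNA per cell cannot be told apart. The hepatocyte marker sums of all 4 tumor-group livers lay above that of sham liver 2, and the neutrophil sums above both sham livers, and their part in these sums was not tested.

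Each of the 8 subfamilies had a lower summed level in both tumor groups, to very different extents. Cyp1a was lowest against sham, at 5.58% of the sham mean TPM in intra-C and 2.33% in intra-S. Its sham livers were at 1771 and 596 TPM, so that these values became 11.1% and 4.63% without sham liver 1, and the intra-S value became 1.33% without intra-S liver 2. Cyp2a came next in intra-S, at 21.7% in intra-C and 10.6% in intra-S (5.30% without intra-S liver 2), followed by Cyp2b at 33.6% and 12.6%. Cyp2j stood at 51.7% and 21.9%, Cyp2e at 46.3% and 25.7%, Cyp2c at 49.9% and 27.6%, and Cyp2d, the least reduced, at 59.7% and 40.2%. Cyp3a was the only one of the 8 whose mean was lower in intra-C, at 22.8%, than in intra-S, at 30.8%. This order rested on intra-S liver 1, at 1445 TPM, since intra-S liver 2, at 831 TPM, lay between the intra-C livers at 802 and 880 TPM, and without liver 1 the intra-S value was 22.5%. The make-up of the P450 pool shifted with these differences. Cyp2e held 33.7% of the members' summed TPM in sham, 39.2% in intra-C and 34.9% in intra-S livers, and Cyp2d 9.86%, 14.8% and 15.8%. Cyp2a held 14.3% in sham and 7.77% in intra-C, and its intra-S livers were apart, at 3.47% and 8.18%. Cyp3a held 13.1% in sham and 7.51% in intra-C, with 23.6% and 10.7% in the intra-S livers.

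**Figure D1:**
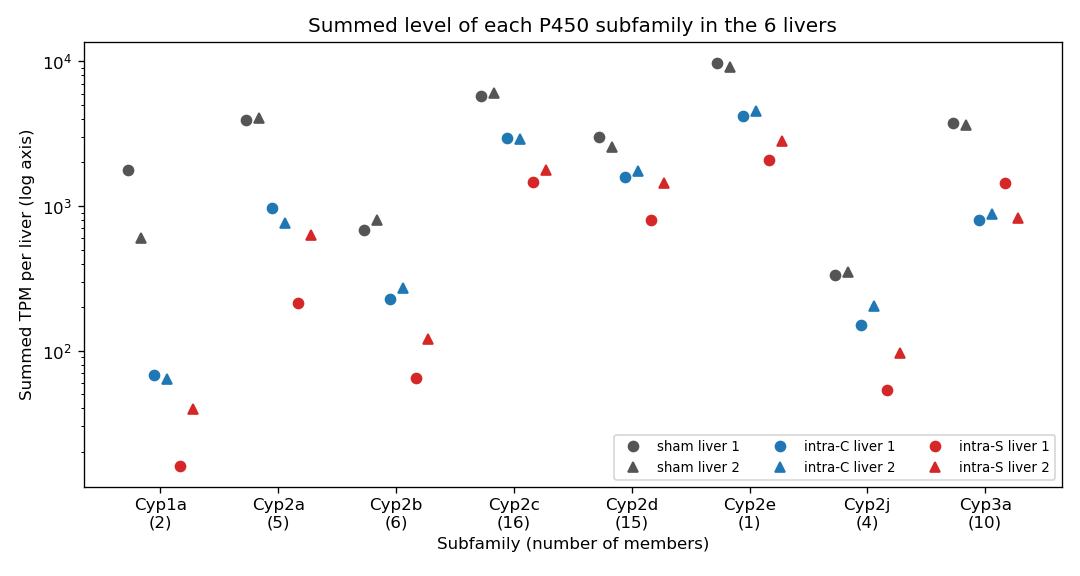
Summed TPM of the members of each subfamily (log axis) in each of the 6 livers, with the number of members under each name; circles are liver 1 and triangles liver 2 of a group. In all 8 subfamilies the sham livers are the highest pair, and in Cyp3a the intra-S liver 1 lies above both intra-C livers.

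By edgeR's quasi-likelihood test with Benjamini-Hochberg adjustment over 16370 genes, 60 of the 66 members could be tested, and the threshold was an adjusted p-value under 0.05. Below, called, fell, rose and passed refer to this test unless DESeq2 is named. Between intra-C and sham, 12 members (20.0% of those tested) fell and 1 rose, while over all genes 2.38% were called lower and 4.92% higher. Between intra-S and sham, 21 members (35.0%) fell and 1 rose, with 3.95% and 6.78% of all genes called lower and higher. The sham livers are shared by both comparisons. Of the members that fell, 11 were called in both comparisons, which is 91.7% of the intra-C calls and 52.4% of the intra-S calls. Cyp3a11 was called in intra-C only, and Cyp2e1, Cyp2a12, Cyp2a21-ps, Cyp2b13, Cyp2c29, Cyp2c38, Cyp2d9, Cyp2j5, Cyp2j6 and Cyp3a44 in intra-S only. These groupings depend on the test, since DESeq2 also called Cyp3a11 in intra-S, and all of these intra-S genes except Cyp2c38, Cyp2j5 and Cyp2j6 in intra-C. The median log2 fold change over the tested members was -1.32 in intra-C and -1.55 in intra-S, beside 0.01 and 0.04 over all genes tested. Both intra-C livers lay below both sham livers for 50 of the 66 members and above them for 6, and the intra-S livers did so for 49 and 4. Over all listed genes such a separation downward was seen in 30.6% for intra-C and 27.5% for intra-S, and upward in 31.4% and 28.0%. Of the 30 members with at least 100 TPM in sham, 28 were below sham in both intra-C livers and 30 in both intra-S livers. These 30 were chosen by their sham level, which favours a lower level elsewhere, and genes of like abundance were not counted.

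These counts of calls rest on few livers. Without either sham liver, no member and no other gene was called by edgeR's test in any comparison, and 20 to 21 members in intra-C and 27 in intra-S were then lower at an unadjusted p under 0.05, beside 4.51% to 5.02% and 5.98% to 6.10% of all genes. The 12 intra-C calls became 1, Cyp3a59, without either intra-C liver (0.017% and 0.0227% of all genes called lower) and 36 without either intra-S liver (12%). The 21 intra-S calls became 11 and 9 without intra-C liver 1 and 2 (0.954% and 0.817% of all genes), and 33 and 42 without intra-S liver 1 and 2 (6.93% and 15.4%). In a fit with only the sham and intra-S livers 8 members were called lower (0.734% of all genes), namely Cyp1a2, Cyp2c37, Cyp2c40, Cyp2c50, Cyp2c54, Cyp2c69, Cyp3a16 and Cyp3a59, and in a fit with only the sham and intra-C livers 37 were (14.2%).

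**Figure D2:**
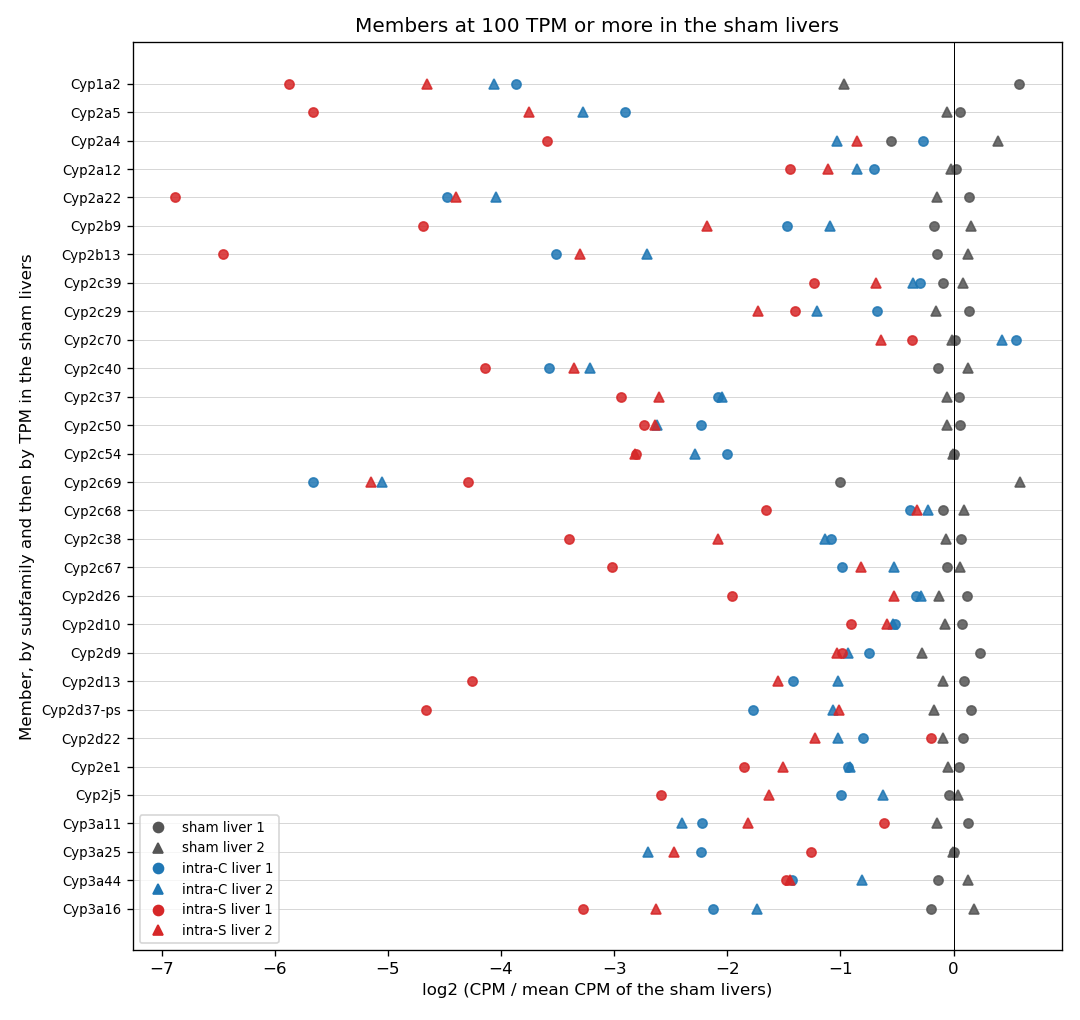
Level of each member with at least 100 TPM in sham, as log2 of the CPM in each liver over the mean of the sham livers, grouped by subfamily; each point is 1 liver, circles liver 1 and triangles liver 2. All intra-S points lie left of both sham points, while Cyp2c70 has both intra-C points right of them and intra-S liver 1 is often the leftmost point.

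The promoters of the members were read to see which sequence features the genes share. The 250 bases before the annotated start were available for 45 members (47 windows, RefSeq on GRCm38.p6) and were searched for 7 short motifs, on both strands except for TATAAA, which was searched on the gene's strand. TATAAA, the TATA box that positions RNA polymerase, was in 38.3% of the members' windows and in 7.59% of all 32851 windows of this length. AGGTCA, a core hexamer bound by nuclear receptors, was in 27.7% against 14.0%, AGTTCA in 14.9% against 11.8%, GTTAAT, a part of the HNF1 motif, in 12.8% against 6.43%, and the C/EBP motif TTGCNNCAA in 4.26% against 1.74%. GCGTG, the core of the AHR motif, was in 12.8% of the members' windows against 28.2%. The STAT motif TTCNNNGAA was in none of the 47 windows against 7.02%. Motifs may overlap each other, a match is only a match of letters, and no test was made. The windows of the most abundant member (Cyp2e1), of the abundant members with the largest falls in Cyp1a and Cyp2a other than Cyp2a22, and of the only gene that rose are shown 5′ to 3′ on the strand of the gene, with matches to the 7 motifs in capitals. The Cyp2e1 window is chr7:140763569-140763818 (plus strand), that of Cyp1a2 chr9:57683656-57683905 (minus strand), that of Cyp2a5 chr7:26835089-26835338 (plus strand) and that of Cyp3a13 chr5:137921620-137921869 (minus strand).
Cyp2e1: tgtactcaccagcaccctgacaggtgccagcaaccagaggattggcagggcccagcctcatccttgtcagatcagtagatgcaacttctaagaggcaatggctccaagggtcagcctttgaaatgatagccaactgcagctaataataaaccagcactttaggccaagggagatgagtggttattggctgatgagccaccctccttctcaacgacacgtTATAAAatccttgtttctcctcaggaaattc
Cyp1a2: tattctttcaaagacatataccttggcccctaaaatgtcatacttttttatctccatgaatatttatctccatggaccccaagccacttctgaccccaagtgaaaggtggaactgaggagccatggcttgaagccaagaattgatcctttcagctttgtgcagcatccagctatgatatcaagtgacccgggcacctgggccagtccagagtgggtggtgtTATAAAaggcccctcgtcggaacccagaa
Cyp2a5: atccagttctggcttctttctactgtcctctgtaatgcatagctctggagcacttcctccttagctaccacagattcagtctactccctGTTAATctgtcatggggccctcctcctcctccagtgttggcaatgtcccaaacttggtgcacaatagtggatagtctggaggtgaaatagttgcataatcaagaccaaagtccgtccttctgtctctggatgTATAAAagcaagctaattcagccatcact
Cyp3a13: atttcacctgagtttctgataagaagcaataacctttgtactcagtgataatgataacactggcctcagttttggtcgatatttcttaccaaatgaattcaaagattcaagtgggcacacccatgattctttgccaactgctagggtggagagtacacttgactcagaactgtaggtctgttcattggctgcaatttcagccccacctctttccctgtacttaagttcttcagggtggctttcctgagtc
Cyp2e1 and Cyp1a2 held TATAAA as their only match, starting at base -31 and -29 from the transcription start. Cyp2a5 held TATAAA at -29 and GTTAAT at -161, and Cyp3a13 held none of the 7. The windows of Cyp2j6, Cyp2j8, Cyp2d9, Cyp2d10, Cyp2d40, Cyp2r1 and Cyp2s1 held none either, and Cyp2j6 and Cyp2d9 fell in intra-S. The Cyp3a13 window lies within the RefSeq span of the gene.

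The AHR target Cyp1a2, which oxidizes caffeine and aromatic amines, fell to 6.42% of the sham mean CPM in intra-C and 2.84% in intra-S. It was at 1467 and 502 CPM in sham livers, 67.3 and 59.1 in the intra-C livers and 16.8 and 39.1 in the intra-S livers. The sham livers were more than 2-fold apart, and the lower of them was still far above all 4 tumor-group livers. The log2 fold change was -3.96 (SE 0.64, adjusted p = 0.023, edgeR) in intra-C and -5.14 (SE 0.68, adjusted p = 0.0115, edgeR) in intra-S. These became -2.99 and -4.16 without sham liver 1, and the intra-S value -5.87 without intra-S liver 2. Cyp1a1, its neighbour on chromosome 9 and the classical AHR-induced enzyme for polycyclic hydrocarbons, was at 32.5 CPM (1319 counts) in sham liver 1 and at 0.0309 to 0.56 CPM in the other 5 livers. That single liver was also the one with the high Cyp1a2 value, and neither comparison of Cyp1a1 passed by edgeR (adjusted p = 0.125 and 0.103), while DESeq2 called it lower in both (adjusted p = 0.0408 and 0.0277). Cyp1b1, a member of the same family found mostly outside the liver, was low throughout, at 0.123 and 0.226 CPM in the sham, 1.35 and 0.433 in the intra-C and 1.37 and 0.908 in the intra-S livers, without passing the test (adjusted p = 0.125 and 0.081, edgeR). All 4 tumor-group livers were above sham, and DESeq2 called Cyp1b1 higher in intra-S (log2 fold change 2.69, adjusted p = 0.0218).

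In the Cyp2a cluster on chromosome 7, Cyp2a5 and Cyp2a22 fell in both tumor groups. Cyp2a5, the coumarin hydroxylase, was at 2161 and 1988 CPM in sham livers, 277 and 214 in the intra-C livers and 41.0 and 154 in the intra-S livers, with no overlap between the 3 groups. Its log2 fold changes were -3.08 (SE 0.60, adjusted p = 0.0366, edgeR) and -4.41 (SE 0.64, adjusted p = 0.0145, edgeR), the latter being -3.75 and -5.66 without intra-S liver 1 and 2. Cyp2a22 was at 268 and 220 CPM in the sham, 11.0 and 14.8 in the intra-C and 2.07 and 11.6 in the intra-S livers, and its log2 fold changes of -4.25 and -5.15 were among the largest of the abundant members (adjusted p = 0.0302 and 0.016, edgeR). The intra-S value was -4.39 and -6.88 without intra-S liver 1 and 2. Here intra-C and intra-S overlapped, since intra-S liver 2 lay between the intra-C livers. Cyp2a12 fell in intra-S only, by 1.27 on the log2 scale (SE 0.21, adjusted p = 0.0201, edgeR), from 336 and 327 CPM to 122 and 153, with the intra-C livers in between at 203 and 184. The close relative of Cyp2a5, the steroid hydroxylase Cyp2a4, did not pass in either group. It was at 315 and 607 CPM in the sham, 381 and 225 in the intra-C and 38.1 and 254 in the intra-S livers, so that only intra-S was separate from sham. The transcripts of Cyp2a5 and Cyp2a4 share 14.4% and 11.2% of their 100-base words with another gene, so that reads could be exchanged or lost between them. The pseudogene Cyp2a21-ps overlaps Cyp2a22 on the opposite strand in GENCODE M21, while their RefSeq spans are apart. It was at most at 2.17 CPM and was called lower in intra-S (adjusted p = 0.0359, edgeR), where it had 0 and 4 counts. Counting by strand is not given in the sources used here.

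Of the Cyp2b genes next to Cyp2a, only Cyp2b13 was called by edgeR's test. Cyp2b13, which is more active in female than in male livers, was at 153 and 185 CPM in the sham, 14.8 and 25.8 in the intra-C and 1.92 and 17.1 in the intra-S livers. It fell in intra-S by 4.15 on the log2 scale (SE 0.95, adjusted p = 0.0431, edgeR), with a log2 fold change of -3.30 and -6.45 without intra-S liver 1 and 2. It did not pass in intra-C (log2 fold change -3.06, adjusted p = 0.0922, edgeR), where DESeq2 called it lower (adjusted p = 0.00109). Cyp2b9, another gene of this kind, was at 427 and 536 CPM in the sham, 173 and 225 in the intra-C and 18.7 and 106 in the intra-S livers. All 3 groups were apart, and the intra-S comparison did not pass (log2 fold change -2.94, adjusted p = 0.0557, edgeR, and 0.000134 by DESeq2). The intra-S value of Cyp2b9 was -2.17 and -4.69 without intra-S liver 1 and 2. Cyp2b10, the gene by which CAR activation is usually read, gave no such order. It was at 51.7 and 19.9 CPM in the sham, 53.4 and 23.1 in the intra-C and 50.5 and 9.0 in the intra-S livers, so that in every group liver 1 was above liver 2 and the groups overlapped entirely. The 3 Cyp2b pseudogenes were at most at 1.95 CPM. Cyp2b26-ps was not tested, and Cyp2b27-ps and Cyp2b28-ps were not called by edgeR but were called lower in intra-S by DESeq2 (adjusted p = 0.000782 and 0.031).

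Cyp2c, the largest subfamily with 16 members, metabolizes many drugs and turns arachidonic acid into epoxides. It held 5 genes that fell in both groups, Cyp2c40, Cyp2c69, Cyp2c37, Cyp2c54 and Cyp2c50, and 2 more that fell in intra-S only, Cyp2c29 and Cyp2c38. Cyp2c40 was at 633 and 761 CPM in the sham, 58.3 and 75.3 in the intra-C and 39.5 and 68.1 in the intra-S livers, 9.58% and 7.72% of the sham mean. Cyp2c69 was at 99.7 and 299 CPM in the sham, 3.95 and 6.03 in the intra-C and 10.2 and 5.62 in the intra-S livers. The tumor-group livers overlapped each other in both genes and stayed far below sham. The log2 fold changes were -3.38 (SE 0.34, adjusted p = 0.00738, edgeR) and -3.70 (SE 0.35, adjusted p = 0.00578, edgeR) for Cyp2c40, and -5.32 (SE 0.66, adjusted p = 0.0121, edgeR) and -4.66 (SE 0.64, adjusted p = 0.013, edgeR) for Cyp2c69, whose values became -4.32 and -3.66 without sham liver 2. The 2 genes share much sequence, 44.1% and 36.3% of their 100-base words being found in another gene, mostly in each other, so that their separate values are uncertain.

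Cyp2c37, Cyp2c54 and Cyp2c50, which share under 10% of such words with other genes, fell with little spread between livers. Cyp2c37 was at 543 and 504 CPM in the sham, 124 and 127 in the intra-C and 68.1 and 86.1 in the intra-S livers. Cyp2c54 was at 239 and 237, then 59.6 and 48.9, then 34.1 and 33.8 CPM, and Cyp2c50 at 502 and 463, then 102 and 78.4, then 72.3 and 77.2 CPM, in the same order of groups. In all 3 genes the intra-S livers were below the intra-C livers, which were below sham. The log2 fold changes in intra-C were -2.06 (SE 0.22), -2.13 (SE 0.20) and -2.42 (SE 0.23), and those in intra-S -2.76 (SE 0.22), -2.81 (SE 0.21) and -2.69 (SE 0.23), each with an adjusted p between 0.00465 and 0.00808 by edgeR's test.

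The 5 genes that fell in both groups are neighbours on chromosome 19. On GRCm38.p6 they lie within chr19:39767073-40113955, with only the untested pseudogene Cyp2c71-ps among them. The gene before this stretch, Cyp2c68, was at 188 and 213 CPM in the sham and 154 and 172 in the intra-C livers (log2 fold change -0.30, adjusted p = 0.684, edgeR). The gene after it, Cyp2c70, which makes the muricholic acids of mouse bile, was the one abundant member whose intra-C livers lay above sham. It was at 709 and 697 CPM in the sham, 1032 and 943 in the intra-C and 546 and 449 in the intra-S livers, and neither difference passed (log2 fold change 0.49, adjusted p = 0.195, and -0.50, adjusted p = 0.171, edgeR). Whether neighbours move together more than other genes was not tested.

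**Figure D3:**
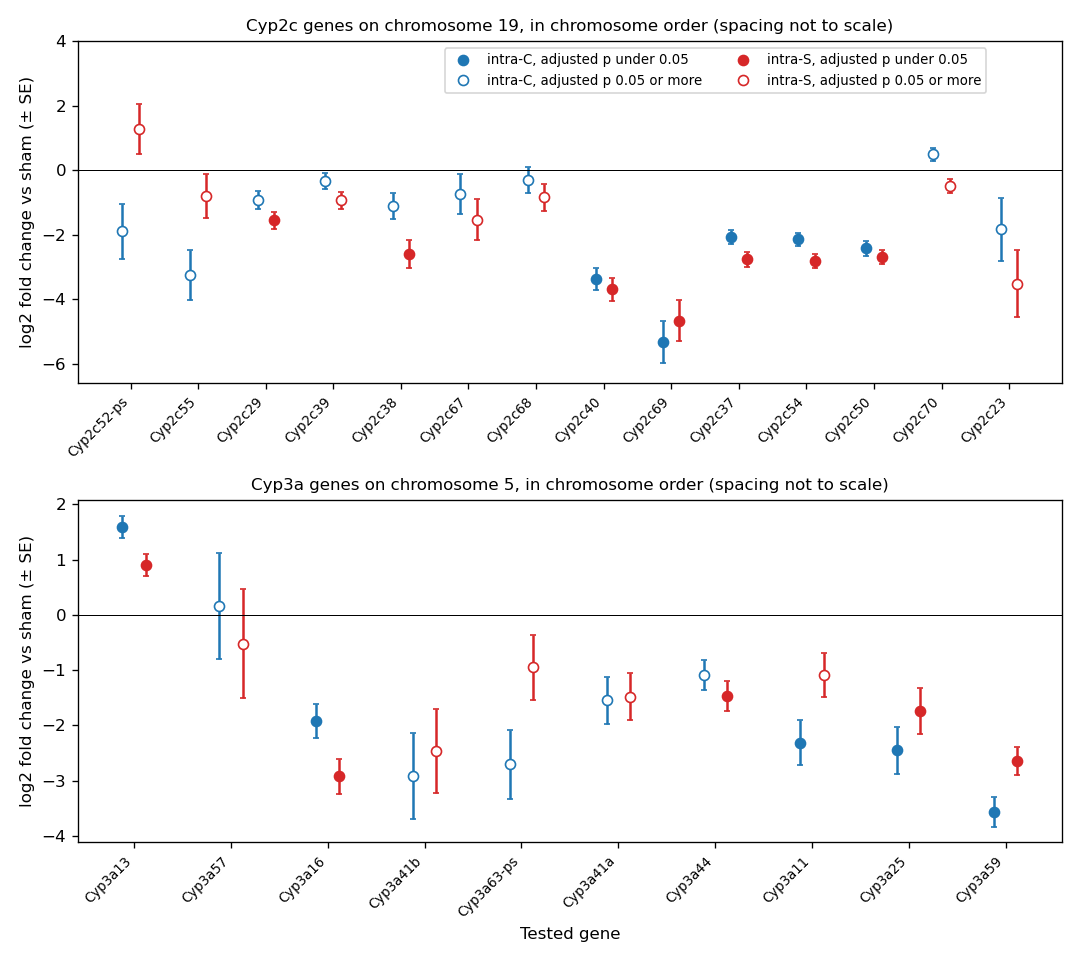
Log2 fold change against sham (± SE, edgeR) of the tested Cyp2c genes on chromosome 19 and the tested Cyp3a genes on chromosome 5, in chromosome order with equal spacing; blue is intra-C, red intra-S, and filled points have an adjusted p under 0.05. The 5 filled blue points of Cyp2c follow each other between Cyp2c68 and Cyp2c70, and Cyp3a13, at the left end of its chromosome's order, is the only gene with both points filled above 0.

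Among the other abundant Cyp2c genes, Cyp2c29, an epoxygenase, fell from 868 and 708 CPM to 299 and 238 in intra-S (log2 fold change -1.55, SE 0.27, adjusted p = 0.0225, edgeR), with the intra-C livers at 492 and 342, also below both sham livers (adjusted p = 0.0914, edgeR, and 0.021 by DESeq2). Cyp2c38 fell from 209 and 190 to 18.9 and 47.0 CPM (log2 fold change -2.60, SE 0.42, adjusted p = 0.0191, edgeR, and -3.40 without intra-S liver 2), with the intra-C livers at 94.3 and 90.7, again below both sham livers. Cyp2c39, the most abundant Cyp2c gene in sham at 1299 and 1471 CPM, was at 1125 and 1083 in intra-C and 588 and 860 in intra-S and was not called by edgeR (adjusted p = 0.45 and 0.0644), though lower in intra-S by DESeq2 (adjusted p = 0.00736). The RefSeq span of Cyp2c39 contains Cyp2c38, which lies on the other strand. Their GENCODE spans do not overlap, and each shares 0% of its 100-base words with other genes. Cyp2c67 and Cyp2c68 were also below sham in all tumor-group livers without passing, and share 23.7% and 19.8% of their 100-base words with other genes. Cyp2c23, a renal and hepatic epoxygenase apart from the cluster, was at 30.5 and 30.6 CPM in the sham, 8.23 and 8.94 in the intra-C and 0.233 and 5.05 in the intra-S livers. The groups were well apart, and the spread between the intra-S livers was large (adjusted p = 0.278 and 0.0814, edgeR). Cyp2c55 and Cyp2c52-ps, both under 3 CPM in every liver, were not called against sham by edgeR, while DESeq2 called Cyp2c55 lower in intra-C (log2 fold change -3.27, adjusted p = 0.0012).

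Cyp2d, the subfamily that oxidizes many basic drugs, was the least reduced of the 8. Its most abundant gene, Cyp2d26, was at 1005 and 848 CPM in the sham, 736 and 757 in the intra-C and 238 and 641 in the intra-S livers, and Cyp2d10 at 639 and 578, 424 and 420, and 325 and 405. Both tumor groups were below sham in each, and neither gene passed (Cyp2d10 adjusted p = 0.174 and 0.0757, edgeR, and 0.109 and 0.0124 by DESeq2). By edgeR only Cyp2d9, a testosterone hydroxylase more active in male livers, was called, in intra-S, where it fell by 1.01 on the log2 scale (SE 0.24, adjusted p = 0.0459, edgeR) from 228 and 161 to 98.5 and 95.4 CPM, with the intra-C livers at 116 and 102. Cyp2d22 was at 208 and 183 CPM in the sham, 112 and 96.1 in the intra-C and 170 and 83.5 in the intra-S livers. Cyp2d13 and Cyp2d37-ps, which RefSeq lists as transcribed pseudogenes, differed widely between the intra-S livers, at 9.62 and 62.5 CPM and at 2.16 and 27.1 CPM. Cyp2d40 went from 20.6 and 19.8 CPM in sham to 30.0 and 26.1 in intra-C without passing (adjusted p = 0.619, edgeR). None of the 7 Cyp2d pseudogenes was called by edgeR, while DESeq2 called Cyp2d13 and Cyp2d38-ps lower in intra-S (adjusted p = 0.00555 and 0.0166), and the scarce Cyp2d11, Cyp2d34 and Cyp2d12 were not called or not tested.

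Cyp2e1, which oxidizes ethanol and acetaminophen, was the most abundant member, with a mean of 9477 TPM in sham. It was at 7687 and 7172 CPM in the sham, 3880 and 3946 in the intra-C and 2059 and 2607 in the intra-S livers. The 3 groups did not overlap and each pair lay close together. The fall in intra-S passed (log2 fold change -1.67, SE 0.23, adjusted p = 0.0133, edgeR) and the difference in intra-C did not (log2 fold change -0.93, SE 0.23, adjusted p = 0.0626, edgeR), although it was called by DESeq2 (adjusted p = 0.00126) and with library size scaling (adjusted p = 0.0441, edgeR). The arachidonic acid epoxygenase Cyp2j5 gave a like order at a lower level, with 516 and 546 CPM in the sham, 267 and 345 in the intra-C and 88.7 and 172 in the intra-S livers. It fell in intra-S by 2.03 on the log2 scale (SE 0.35, adjusted p = 0.0217, edgeR). Cyp2j6 was at 70.0 and 70.1 CPM in the sham and fell to 41.0 and 38.7 in intra-S (log2 fold change -0.81, SE 0.18, adjusted p = 0.0388, edgeR), with 58.4 and 54.4 in intra-C. Cyp2j9, at 1.67 to 5.77 CPM, overlapped between sham and intra-S.

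Cyp3a, the subfamily of the PXR targets, held genes that fell in both groups and the only member that rose. Cyp3a11, the main mouse counterpart of the human drug-metabolizing CYP3A enzymes, was at 1767 and 1462 CPM in the sham, 345 and 305 in the intra-C and 1055 and 458 in the intra-S livers. It fell in intra-C (log2 fold change -2.31, SE 0.41, adjusted p = 0.0291, edgeR) and did not pass in intra-S (log2 fold change -1.09, SE 0.40, adjusted p = 0.126, edgeR, and 0.0459 by DESeq2), where 1 liver was more than 2-fold above the other. The intra-S value of Cyp3a11 was -1.81 and -0.61 without intra-S liver 1 and 2. Cyp3a25 gave the same order, with 934 and 926 CPM in the sham, 198 and 143 in the intra-C and 389 and 168 in the intra-S livers. Cyp3a25 passed in both groups (log2 fold change -2.45, adjusted p = 0.0278, and -1.74, adjusted p = 0.0473, edgeR), and its intra-S value was -2.47 without intra-S liver 1. Cyp3a59 was at 68.1 and 72.7, then 7.0 and 4.92, then 9.68 and 12.8 CPM, and had the smallest adjusted p of the members in intra-C (log2 fold change -3.56, SE 0.27, adjusted p = 0.0058, edgeR; in intra-S -2.64, SE 0.26, adjusted p = 0.00605, edgeR). These 3 genes are neighbours at the far end of the cluster and were all lower in intra-C than in intra-S by their means, while for Cyp3a25 intra-S liver 2 lay between the intra-C livers.

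Cyp3a16 and Cyp3a44, which are more active in female livers, had the other order. Cyp3a16, also made in fetal liver, was at 265 and 345 CPM in the sham, 69.9 and 91.4 in the intra-C and 31.6 and 49.1 in the intra-S livers and fell in both (log2 fold change -1.92, adjusted p = 0.0219, and -2.92, adjusted p = 0.00711, edgeR). Cyp3a44 fell in intra-S from 395 and 473 to 155 and 160 CPM (log2 fold change -1.46, adjusted p = 0.0245, edgeR), with 161 and 248 in intra-C (adjusted p = 0.0604, edgeR, and 0.00369 by DESeq2). Cyp3a41a and Cyp3a41b share 90.8% and 88.2% of their 100-base words with other genes, so that only a part of their reads could be placed. They were not called by edgeR in either group (adjusted p = 0.0743 to 0.0875), while DESeq2 called Cyp3a41a lower (adjusted p = 0.0101 in intra-C and 0.0122 in intra-S) and Cyp3a41b too (0.00098 and 0.00551). Their levels were below sham in all 4 tumor-group livers, as were those of the pseudogene Cyp3a63-ps.

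Cyp3a13 rose in both groups. It was at 82.0 and 70.1 CPM in the sham, 233 and 227 in the intra-C and 147 and 137 in the intra-S livers, with no overlap between the groups and intra-C highest. Its log2 fold change was 1.60 (SE 0.20, adjusted p = 0.0122, edgeR) in intra-C and 0.91 (SE 0.19, adjusted p = 0.0368, edgeR) in intra-S. The intra-S call was lost with library size scaling, with a replicate block, with only the sham and intra-S livers and on TPM, with the adjusted p from 0.00074 to 0.324 over all settings tried. Cyp3a13, a form also made in the intestine, lies at chr5:137892933-137925610, apart from the other Cyp3a genes at chr5:145345149-146114978. A further GENCODE gene model, Gm15502, overlaps it on the same strand, so that reads in the shared stretch can be from either.

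The 7 members of single-gene subfamilies were scarce. Cyp2g1, an olfactory form, was at 23.3 and 33.5 CPM in the sham, 3.57 and 2.63 in the intra-C and 0.292 and 4.93 in the intra-S livers without passing (adjusted p = 0.106 and 0.0814, edgeR). The vitamin D hydroxylase Cyp2r1 was at 4.16 and 6.99 CPM in the sham, 6.57 and 5.66 in the intra-C and 0.671 and 4.12 in the intra-S livers, and Cyp2u1, Cyp2s1 and Cyp2t4 were under 2 CPM in every liver. None of the 7 was called by edgeR, while DESeq2 called Cyp1b1 higher in intra-S, as given with the Cyp1 genes, Cyp2g1 lower in intra-S (adjusted p = 0.0464) and Cyp2u1 lower in intra-C (adjusted p = 0.0137). The 6 members that could not be tested, Cyp2j8, Cyp2d12, Cyp2c71-ps, Cyp2ab1, Cyp2c65 and Cyp2b26-ps, had 0 to 12 counts in a liver. How reads that match several places bear on the calls was not tested. Of the 63 members with a GENCODE transcript, 50 share under 10% of their 100-base words with other genes, and these included 9 of the 12 intra-C and 17 of the 21 intra-S calls for lower levels.

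Whether the intra-S livers differed from the intra-C livers was tested directly. No member was called by edgeR's test, nor was any other gene, with 10 members lower and 6 higher at an unadjusted p under 0.05, beside 6.41% and 6.99% of all genes. DESeq2 called Cyp2c70, Cyp2c38, Cyp2e1, Cyp2j5 and Cyp3a13 lower and Cyp2c52-ps higher in intra-S, where 1.81% and 1.55% of its tested genes were called lower and higher. The intra-S livers themselves lay apart. Among the 30 members of at least 100 TPM in sham, these livers were more than 2-fold apart in 15, against 0 for the intra-C and 2 for the sham livers. No such count was made over all genes, which also differed most between the intra-S livers (chi-square per degree of freedom 337, against 73.1 in intra-C and 24.8 in sham). Intra-S liver 1 was the lower of the pair in 22 of these 30 members. Cyp3a11, Cyp3a25 and Cyp2d22 were among those in which intra-S liver 1 was the higher. Without intra-S liver 2, 25 members were called lower and 6 higher than in intra-C, with 9.02% and 7.53% of all genes called, and without intra-S liver 1 only Cyp2c70 was called (lower, as were 0.176% of all genes).

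Genes that regulate, supply or assist the P450 enzymes were read from further lists. Of 10 electron donors and partner enzymes, 4 fell in intra-C and 5 in intra-S and none rose (40% and 50% lower, beside 2.38% and 3.95% of all genes), with a median log2 fold change of -1.02 and -1.22. The 4 common to both were Cyb5a, the microsomal cytochrome b5, the epoxide hydrolases Ephx1 and Ephx2, which open the epoxides that P450 enzymes form, and the mitochondrial ferredoxin Fdx1, while the ferredoxin reductase Fdxr fell in intra-S only. Ephx2 was at 445 and 410 CPM in the sham, 110 and 160 in the intra-C and 105 and 93.6 in the intra-S livers (adjusted p = 0.0191 and 0.00912, edgeR). Por, the reductase that every microsomal P450 needs, was at 444 and 397 CPM in the sham, 440 and 334 in the intra-C and 606 and 210 in the intra-S livers, where it lay on both sides of sham (log2 fold change -0.12 and -0.04, adjusted p = 0.898 and 0.961, edgeR).

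Of the 10 genes of heme synthesis and breakdown, none was called in intra-C by edgeR (3 lower and 1 higher at an unadjusted p under 0.05, beside 11.8% and 15.2% of all genes, and 1 lower and 1 higher by DESeq2, which called 6.31% and 10% of all genes), and 2 fell and 1 rose in intra-S, 20% and 10% beside 3.95% and 6.78% of all genes. There Alas1, the rate-limiting enzyme of heme synthesis, fell by 1.75 on the log2 scale (SE 0.38, adjusted p = 0.0375, edgeR), from 899 and 562 CPM to 185 and 249, with 303 and 533 in intra-C. Alad, the next enzyme of the pathway, fell from 264 and 274 to 34.8 and 95.3 CPM (log2 fold change -2.04, adjusted p = 0.039, edgeR, and -2.95 without intra-S liver 2), with 82.7 and 81.4 in intra-C. The heme-degrading Hmox1 rose in intra-S from 11.9 and 11.7 to 189 and 54.6 CPM (log2 fold change 3.36, SE 0.57, adjusted p = 0.021, edgeR, and 2.21 and 4.0 without intra-S liver 1 and 2) and was at 72.0 and 56.4 in intra-C (adjusted p = 0.0503, edgeR). Hmox1 is also abundant in macrophages, and 6 of 7 monocyte and macrophage markers rose in each group, beside 4.92% and 6.78% of all genes. Their summed level was 132 and 139 CPM in the sham, 539 and 732 in the intra-C and 430 and 716 in the intra-S livers, and their part in the Hmox1 values was not tested.

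Of 26 regulators of P450 genes, 25 were tested and most were not called. In intra-C, Stat3 rose and Nr1i3 and Cebpa fell. In intra-S, Stat3 and Foxa3 rose and Nr1i3, Ppara and Bcl6 fell. The share called higher was 4% in intra-C and 8% in intra-S, near the 4.92% and 6.78% of all genes, and the share called lower was 8% and 12%, beside 2.38% and 3.95%. The median log2 fold change of the list was -0.11 in intra-C and -0.33 in intra-S. Nr1i3, which encodes CAR, was at 203 and 134 CPM in the sham, 49.2 and 66.0 in the intra-C and 57.0 and 60.0 in the intra-S livers. It was thus below sham to a similar level in all 4 tumor-group livers (log2 fold change -1.55, SE 0.28, adjusted p = 0.0291, and -1.53, SE 0.28, adjusted p = 0.0241, edgeR). Stat3, which carries the interleukin 6 signal, was at 67.0 and 62.4 CPM in the sham, 229 and 226 in the intra-C and 134 and 130 in the intra-S livers, with no overlap between the groups. Its log2 fold changes were 1.82 (SE 0.19, adjusted p = 0.00785, edgeR) and 1.03 (SE 0.18, adjusted p = 0.0236, edgeR). Cebpa, a hepatocyte transcription factor, was at 168 and 271 CPM in the sham, 57.7 and 77.7 in the intra-C and 172 and 106 in the intra-S livers, with a fall in intra-C only (log2 fold change -1.70, SE 0.36, adjusted p = 0.0423, edgeR). The receptors Ahr and Nr1i2 did not pass (log2 fold change -0.11 and -0.15 in intra-C, -0.33 and -0.61 in intra-S), nor did Hnf4a (0.80 and 0.32).

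**Figure D4:**
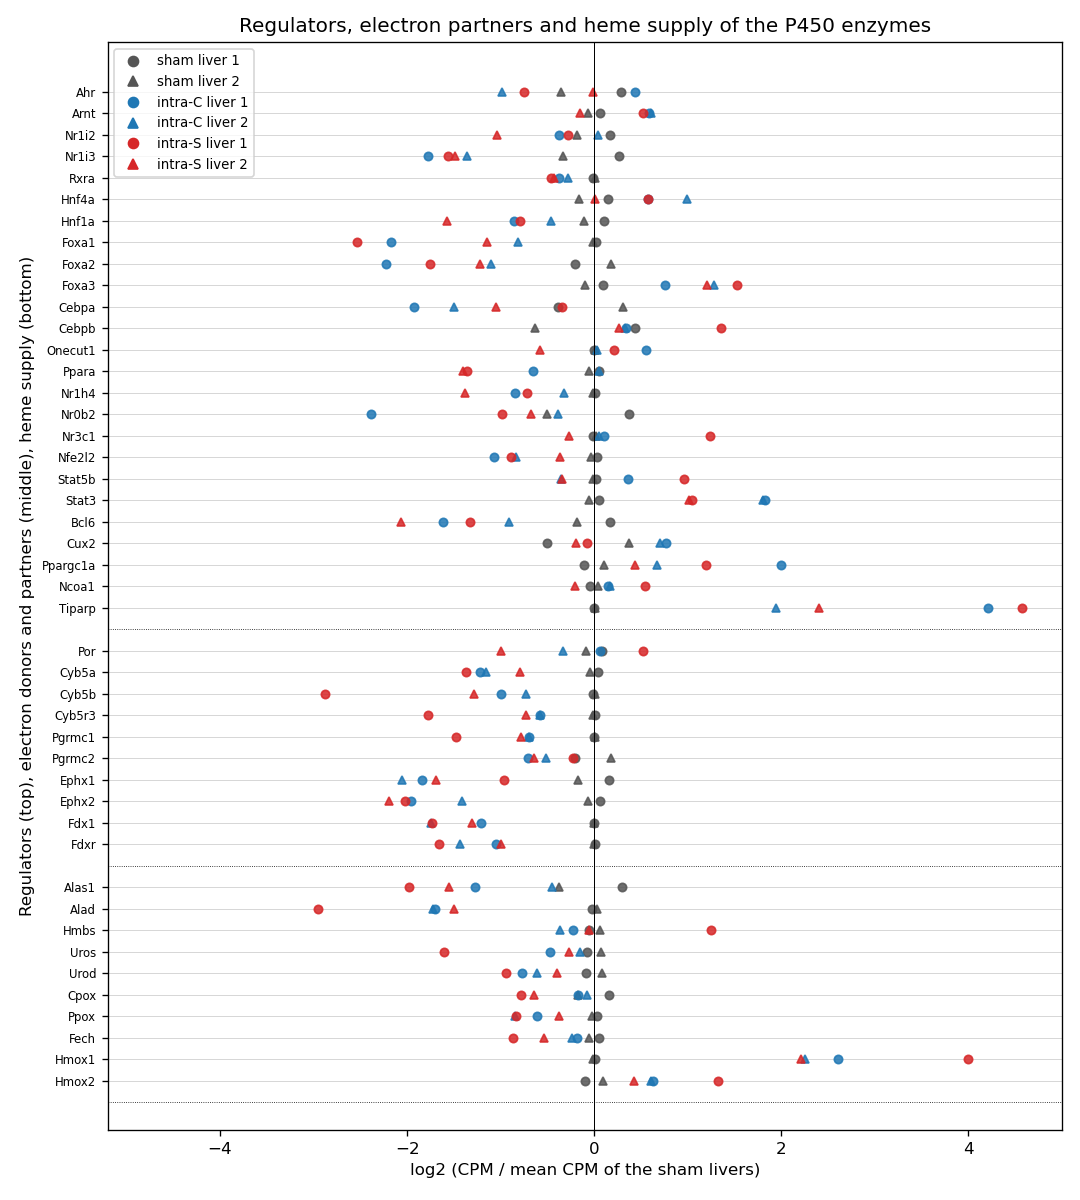
Level of the tested regulators, electron donors and partners, and heme genes, as log2 of the CPM in each liver over the mean of the sham livers; each point is 1 liver, circles liver 1 and triangles liver 2. Stat3 has all 4 tumor-group points right of sham and Nr1i3, Ephx2 and Fdx1 have all 4 left of it, while Por has them on both sides.

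Other genes of the hepatocytes around the central vein were read beside the P450 genes. Of 15 pericentral genes other than P450, 14 were tested, and 1 fell in intra-C (Rnf43) and 1 in intra-S (Aldh1a1), which is 7.14% of those tested in each, beside the 2.38% and 3.95% of all genes called lower, with a median log2 fold change of -0.63 and -0.51. Glul, the glutamine synthetase of the innermost pericentral cells, was at 426 and 494 CPM in the sham, 420 and 398 in the intra-C and 438 and 407 in the intra-S livers (adjusted p = 0.632 and 0.719, edgeR). Of 13 periportal genes, Otc fell in both groups and Gls2 in intra-S (7.69% and 15.4% of those tested), with a median of 0.15 and -0.15. Of the 12 hepatocyte markers, only Apob was called by edgeR, higher in intra-C, and the medians were 0.32 and 0.20.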

How the data were processed

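Reads were aligned by the authors with HISAT2 2.1.0 (mm10) and counted per gene with featureCounts of Subread 2.0.6, per the submitters' processing notes; the gene annotation and the use of strand are not given in the sources used here. They deposited raw counts and TPM for 20140 genes in 6 livers. Counts were tested here with edgeR 4.0.16 (R 4.3.3): TMM scaling, filterByExpr with a count minimum of 10, 1 quasi-likelihood fit for the 6 livers, and p-values adjusted by Benjamini-Hochberg for 16370 genes with a threshold of 0.05. Deposited TPM values were summed over subfamilies. Alternatives were DESeq2 1.42.0, limma 3.58.1 on log2(TPM + 1) and log2(TPM + 0.1), other filters and scalings, a replicate block and leaving out each liver. Coordinates and promoters are from RefSeq (GRCm38.p6), and shared 100-base words from GENCODE M21 transcripts. The procedure was tested on simulated data with the same spread in every group, and the outcome is not given here. With 2 livers per group, p-values rest on little replication. The members and gene lists were chosen with earlier results of these data known. Named by rule are members of at least 100 TPM in sham, the most abundant of each subfamily, and per comparison up to 8 called members in each direction with the largest changes and a mean of at least 1 CPM. The other called members and a few more were picked with their values in view.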

Additional observations from a re-analysis of the deposited data

Results flagged for a closer look

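Cyp2c70 stood out because both intra-C livers lay above both sham livers while both intra-S livers lay below them. Its direct log2 fold change between intra-S and intra-C was -0.99 (SE 0.21), which did not pass by edgeR's quasi-likelihood test (adjusted p = 0.285, and 0.00253 to 0.76 over the settings tried, the lowest of them with DESeq2). It is also the only member called between these groups when intra-S liver 1 is left out.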

How the results depend on the processing

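The count of members called lower in intra-C (12) was 25 with DESeq2 (6.31% of all genes), 19 with library size scaling (4.89%), 37 with only the 2 groups compared, 21 on log2(TPM + 1) (5.47%), 20 on log2(TPM + 0.1) (5.44%) and 0 to 36 when each liver was left out in turn. The count called higher (1) was 3 with only the 2 groups compared, where 16.3% of all genes were called higher, and 0 to 3 without a liver (0 to 14.5% of all genes). In intra-S, the count called lower (21) was 33 with DESeq2 (8.03% of all genes), 8 with only the 2 groups compared and 0 to 42 without a liver, and the count called higher (1) was 2 with DESeq2 (11.5% of all genes), 0 with library size scaling, with only the 2 groups compared and on both TPM scales (1.75% to 5.12%), and 0 to 3 without a liver (0 to 17.3%). Between intra-S and intra-C, DESeq2 called 5 lower and 1 higher, and leaving out a liver gave 0 to 25 lower and 0 to 6 higher. Where a group kept 1 liver, that liver was assumed to vary like the others. Of the 141 tested genes of all other lists, 32 were called in intra-C (7.30% of all genes), 53 of 142 with DESeq2 (16.3%), 85 of 139 with only the 2 groups compared (30.5%) and 0 to 85 without a liver (0 to 26.5%). In intra-S 51 were called (10.7% of all genes), 19 with only the 2 groups compared (2.48%) and 0 to 91 without a liver (0 to 32.7%). Between intra-S and intra-C 0 were called by edgeR, 14 of 140 with DESeq2 (3.36%) and 0 to 51 without a liver (0 to 16.5%). The cause of these changes was not tested.

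The replicate numbers do not pair the livers in the labels, and deviations of same-numbered livers correlated at -0.032, 0.0827 and 0.0428 across genes in the 3 comparisons. With the replicate block, 14 members were lower and 1 higher in intra-C, and 22 lower and 0 higher in intra-S, where 1.58% and 4.11% and then 3.38% and 5.83% of all genes were called lower and higher. Library size scaling moved the median log2 fold change of all genes to -0.25 in intra-C and -0.23 in intra-S. With summed CPM in place of TPM, the log2 differences became -0.81 for Cyp2c (from -1.0), -0.54 for Cyp2d (from -0.74), -0.92 for Cyp2e (from -1.11), -0.74 for Cyp2j (from -0.97) and -1.76 for Cyp3a (from -2.14) in intra-C, and -1.53 for Cyp2c (from -1.86) and -1.68 for Cyp2e (from -1.98) in intra-S. Of 80 results for the called and other named members, 35 were called, and 21 of these kept the call in every setting other than leaving out a liver. Over all 120 results of tested members against sham, none of the 35 called and 14 of the others, in 10 genes, changed sign in at least 1 setting. Of these 14, 3 were in genes with a mean of at least 10 CPM, Cyp2b10 in both comparisons and Cyp2d40 in intra-S. Cyp2b10 ran from -0.63 to 0.95 in intra-C and from -1.99 to 0.58 in intra-S, and Cyp2d40 in intra-S from -1.41 to 0.51, the last without intra-S liver 1. For Cyp2r1 in intra-C it became -0.13 with library size scaling, -0.015 on log2(TPM + 1), -0.012 on log2(TPM + 0.1) and -0.19 without sham liver 1 (up to 0.55 without another liver). For Cyp2s1 in intra-C it became -0.45 with the replicate block, -0.64 on log2(TPM + 0.1) and -7.46 without intra-C liver 1 (up to 1.64 without another liver), and in intra-S -0.36 without intra-S liver 1 (up to 1.61). For Cyp2t4 in intra-S it became -1.62 without intra-S liver 1 (up to 3.04). Leaving out a liver from the subfamily sums and reading the sign of every tested member were added after the data were seen, as was counting only members with under 10% shared words, which left 9 lower in intra-C and 17 in intra-S. With 3 counts as the floor, no change can be read in members near 0.0679 to 0.0928 CPM.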

Other observations

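P450 genes of other families, which make bile acids or oxidize fatty acids, were also read: of 22 listed, 3 fell and 1 rose in intra-C, and 5 fell and 2 rose in intra-S, with a median log2 fold change of -1.05 and -1.09. The shares called lower were 13.6% and 22.7%, beside 2.38% and 3.95% of all genes, and those called higher 4.55% and 9.09%, near the 4.92% and 6.78% of all genes. The leukotriene hydroxylase gene Cyp4f14 was at 281 and 304 CPM in the sham, 136 and 123 in the intra-C and 33.7 and 48.9 in the intra-S livers (adjusted p = 0.0405 and 0.00578, edgeR). Cyp4f15 and Cyp4v3 fell in both groups, Cyp4f13 and Cyp7b1 in intra-S only, while Cyp4f16 rose in both and Cyp4f18 in intra-S only. Cyp7a1, the rate-limiting enzyme of bile acid synthesis, was at 191 and 150 CPM in the sham, 319 and 16.3 in the intra-C and 6.36 and 68.5 in the intra-S livers, and was not called by edgeR.

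Of markers of other liver cells, 3 and 3 of 5 endothelial genes rose in intra-C and intra-S, in that order, not necessarily the same genes. In the same order, 0 and 2 of 5 stellate and fibroblast genes rose, 0 and 1 of 5 cholangiocyte, 1 and 4 of 4 proliferation, and 0 and 4 of 4 erythroid genes. None of these markers fell by edgeR's test, which called 4.92% and 6.78% of all genes higher.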
